A study of Physcomitrium patens with 6 samples.

Results

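Gene models annotated to glycolysis, to the citrate cycle or to the pentose phosphate pathway were followed over 6 tag libraries of the moss Physcomitrella patens. A gene model was taken as a member if its gene ontology (GO) text named glucose catabolism, glycolysis, the pentose-phosphate shunt or tricarboxylic acids, and if that text named neither photosynthesis, carbon fixation, photorespiration or thylakoids nor starch, sucrose or the respiratory chain. The rule used annotation and no measured value. It found 135 members of 124 loci among the 19265 gene models listed in the files, of which 12900 carried a GO term.

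The label citrate cycle was only partly borne out by the annotation. The term tricarboxylic acid brought in 4 gene models, all annotated as transporters of tricarboxylic acids, and no member carried a term for the cycle itself. Enzyme classes with forms that feed or belong to the cycle were present through their glucose catabolism term. These were 11 malate dehydrogenases, 7 pyruvate dehydrogenase subunits and 4 related oxo acid dehydrogenases, some of them annotated to plastids and so not to the cycle. The pentose phosphate pathway had 6 members, and 3 members were annotated as transcription factors with a glycolysis term. The remaining members are named here by the function term in the files, and not all of those terms are steps of glycolysis.

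The libraries were made from protonemata at days 3, 14 and 24 after protoplast isolation, from leafy shoots at day 30, and from caulonemal and chloronemal cells that were captured by laser from 14-day-old protonemata. The tissue field of the labels reads leafy shoot for all 4 days, whereas the growth protocol and the paper give protonema for days 3 to 24, and the protocol was followed. No genotype or treatment distinguishes the groups, and no strain is given in the labels. Each library pooled 3 biological replicates, so that there was 1 library per condition and the spread between plants could not be measured.

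Glycolysis splits hexoses into pyruvate and yields ATP and NADH, pyruvate dehydrogenase passes the carbon to the citrate cycle in mitochondria or to fatty acid synthesis in plastids, and the pentose phosphate pathway supplies NADPH and pentoses. Plants hold many of these enzymes as separate cytosolic and plastid forms. In moss protonemata, chloronemal cells are rich in chloroplasts, whereas caulonemal cells have fewer and extend the filament.

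Tags were 21 nt long and began at a CATG site, where the enzyme NlaIII cuts. The files gave 1 tag per gene model and library with the number of its site counted from the 3′ end, and they do not state whether the count also holds other tags of that gene model. The tags below show both situations met among the members, with CATG in capitals. The first pair belongs to 1 gene model, a glyceraldehyde-3-phosphate dehydrogenase whose listed tag was at site 3 in the libraries of days 3 and 14 and at site 2 in the other 4. Next come the tags of Pp1s475_27V6.3 and Pp1s33_389V6.2, the aldehyde-lyases with the most tags, which were listed at site 1 in all 6 libraries. Pp1s475_27V6.2 is another model of the locus of Pp1s475_27V6.3, and its tag differs at 1 base, A17G, from that of Pp1s33_389V6.2, counted from 1 at the 5′ end of the tag with the base of Pp1s475_27V6.2 first. The last pair, from aldehyde-lyases of separate loci, differs by C21T, with the base of Pp1s104_88V6.2 first.
Pp1s353_25V6.1 at site 3: CATGgccaaacaagggacctc
Pp1s353_25V6.1 at site 2: CATGttacggtcatctttgaa
Pp1s475_27V6.3: CATGttgcaagaacctgataa
Pp1s33_389V6.2: CATGgaagggacagccggaga
Pp1s475_27V6.2: CATGgaagggacagccagaga
Pp1s104_88V6.2: CATGtgaagaactacgtgtac
Pp1s89_161V6.1: CATGtgaagaactacgtgtat
These were the only pairs of members whose listed tags differed by 1 base. The authors accepted 1 mismatch in matching and discarded tags that matched several genes, so the values of these 4 aldehyde-lyases, and of other members given as alternative models of 1 locus, are uncertain.

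Gene tags totalled 5857712 to 7027742 at days 3 to 24 and 1733082 to 2557991 in the day 30, caulonema and chloronema libraries. A level is given below as normalized TPM, the tags of a gene model per 1000000 gene tags after scaling by TMM (trimmed mean of M-values), and since each transcript gives 1 tag it does not depend on length. The floor of 3 tags, used for a value that was not listed, corresponded to 0.513 to 1.71 normalized TPM. The listed CATG site was the same at days 3 and 14 in 91.1% of 112 members listed in both (85.4% over all gene models). Shares over all gene models also follow in brackets. It was the same in 94.2% (90.3%) between day 30 and caulonema and 94.1% (90.2%) between day 30 and chloronema. Between the 2 captured libraries it was the same in 95.2% (90.9%). Between days 14 and 24 it was the same in only 76.8% of 112 (74.5%), and between days 24 and 30 in 78.5% of 107 (77.2%). Between day 14 and caulonema it was the same in 76.6% (73.5%), and between day 14 and chloronema in 81.6% (74.1%). Across the 135 members, whose points share library and depth, the day 30 values ranked more like caulonema (Spearman 0.88) than like day 24 (0.765), and over all gene models the same values were 0.82 and 0.738. The day 30 library therefore stood apart from the other days, and values of the captured tissues are given beside its results. By listed site the day 24 library stood apart too. It had the same site as day 3 in 76.1% of members (76.0% over all gene models) and as caulonema in 79.1% (77.9%). What sets the day 24 sites apart and the stage cannot be told apart in these data.

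Of the 135 members, 97 were listed in all 6 libraries and 15 in 1 library only. Only members with over 100 tags in at least 1 of the libraries compared were tested, which 92 were in some comparison, and 43 never reached that number. Their summed level was 13640, 9953, 6271 and 9031 normalized TPM at days 3, 14, 24 and 30, 7881 in caulonema and 10310 in chloronema, or between 0.624% and 1.26% of all gene tags. Day 24 was thus the lowest library and day 3 the highest. The 46 members with a plastid or chloroplast term summed to 6734, 3555, 2116 and 2261 normalized TPM over the 4 days, and the 89 others to 6909, 6398, 4155 and 6770. The median per member was 33.1, 25.4, 20.4 and 21.2 normalized TPM for the plastid set over the 4 days and 24.9, 26.9, 13.6 and 17.1 for the others, so that the plastid median moved less than its sum.

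**Figure D1:**
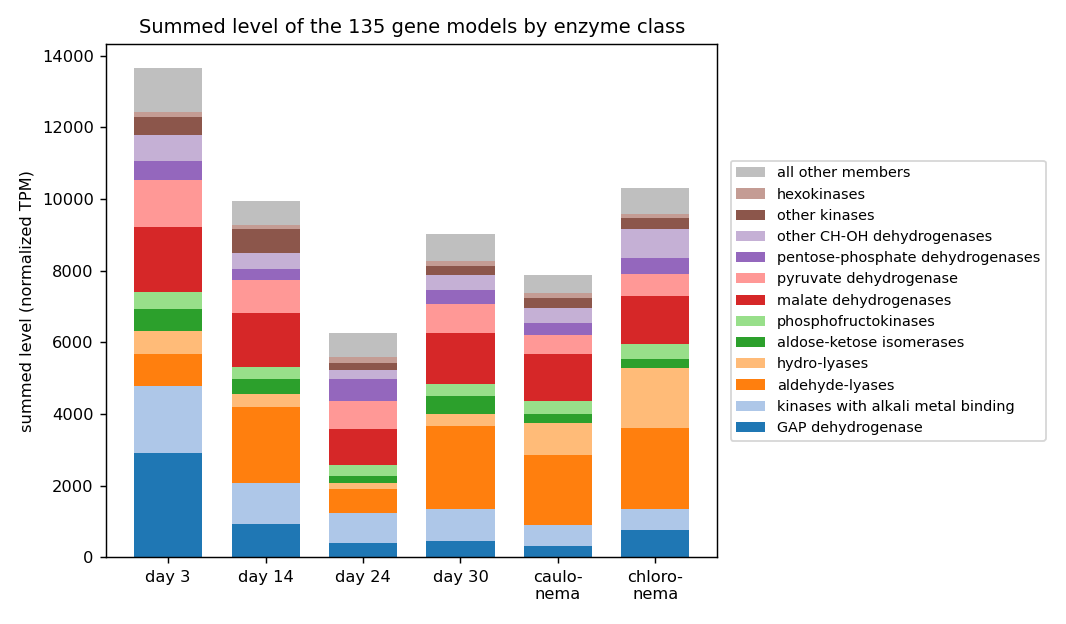
Summed level of the 135 gene models in normalized TPM (vertical axis) in each of the 6 libraries, stacked by enzyme class. Glyceraldehyde-3-phosphate (GAP) dehydrogenases make up 398 normalized TPM of the bar at day 24 and 2900 at day 3, and aldehyde-lyases 686 at day 24 and 870.6 at day 3. Each bar is 1 library, with no replicate.

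A single gene model decided part of the peak at day 3. Without Pp1s353_25V6.1, a choice made after seeing the data, the summed levels were 11510, 9739, 6071 and 8728 at days 3, 14, 24 and 30. Of the 89 members tested in a developmental comparison, 34, 19, 10 and 26 had their highest level at days 3, 14, 24 and 30. These are 38.2%, 21.3%, 11.2% and 29.2%, against 23.1%, 26.3%, 24.9% and 25.7% of all 8861 gene models tested. With day 30 left out, days 3, 14 and 24 had 47, 30 and 12.

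To ask which of these genes differed between consecutive stages, the tags of each gene model in both libraries were set against each other (two-sided exact binomial test) with Benjamini-Hochberg adjustment over all gene models tested. A member was called higher or lower at over 2-fold with p under 0.01 and adjusted p under 0.001. Such a test compares 2 libraries, not 2 conditions, and the 95% intervals below cover counting error only. Fewer cells of a type and less RNA per cell cannot be told apart in these pooled tissues.

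Between days 14 and 3, more members were lower than higher at day 14. A glyceraldehyde-3-phosphate dehydrogenase, a plastid kinase and a plastid pyruvate dehydrogenase were among the lower ones, while 3 aldehyde-lyases and another plastid kinase were higher. Of 88 members tested, 13 were called higher and 27 lower, where 20.1% and 20.3% of all 7710 gene models tested (40.4% in either direction) were called higher and lower. The members' median log2 ratio was -0.29, beside 0.07 over all gene models tested. The plastid set had 6 higher and 11 lower of 33 (median -0.37), and the others 7 higher and 16 lower of 55 (-0.28).

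**Figure D2:**
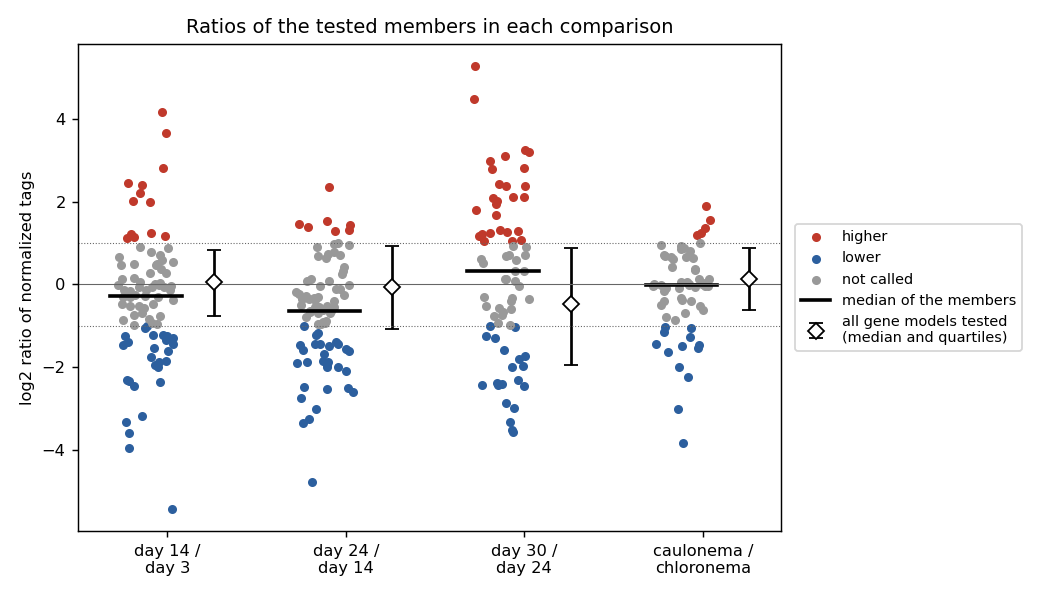
Log2 ratios of normalized tags (vertical axis) of the members tested in each of the 4 comparisons, 1 point per member, coloured by call, with dotted lines at 2-fold. Bars give the members' medians (-0.29, -0.63, 0.32 and -0.02), and diamonds with whiskers the median and quartiles of all gene models tested. For Pp1s169_138V6.1, the lowest point of the first comparison, the ratio uses the floor of 3 tags at day 14.

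Glyceraldehyde-3-phosphate dehydrogenase makes the NADH of glycolysis. Pp1s353_25V6.1 had 2133, 214, 199.6 and 304 normalized TPM at days 3, 14, 24 and 30, and 45.6 in caulonema and 46.2 in chloronema. It was the most abundant member at day 3, where its 12175 tags were 73.5% of the tags of its class (exact interval 72.9% to 74.2%). It was 9.96-fold lower at day 14 (9.4 to 10.6), with the same tag listed in both libraries. The second member of that enzyme, Pp1s3_238V6.3, had 739, 713, 194 and 116 normalized TPM over the 4 days, and 236 in caulonema and 687 in chloronema. It was not called at day 14, with 4165 tags against 4220 at day 3. The 7 other members of this enzyme were under the limit of 100 tags in all 4 days.

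Kinases of glycolysis transfer phosphate from ATP or to ADP. Those whose function terms also hold binding of alkali metal ions form the class to which pyruvate kinase belongs. Pp1s205_25V6.1 of that class, annotated to the plastid stroma and to fatty acid metabolism, had 1029, 259, 139 and 34.6 normalized TPM at days 3, 14, 24 and 30, and 24.1 in caulonema and 33.1 in chloronema. It was 3.97-fold lower at day 14 than at day 3 (3.75 to 4.21). Pp1s90_133V6.2, the member of the class with the most tags, had 389.2, 470.1, 415 and 289.8 normalized TPM over the days, and 187 in caulonema and 114 in chloronema, and was called in none of the 4 comparisons. Of the 13 tested in the class, none was called higher and 3 lower at day 14.

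The kinases outside that class moved in opposite directions. Pp1s201_82V6.2, a plastid kinase, had 32.4, 583, 72.4 and 117 normalized TPM at days 3, 14, 24 and 30, and 175 in caulonema and 252 in chloronema. At day 14 it was 18-fold higher than at day 3 (15.5 to 20.97). Pp1s293_91V6.1 had 263, 28.9, 30.7 and 38.7 normalized TPM, and 29.0 in caulonema and 9.69 in chloronema, and was 9.09-fold lower at day 14 (7.75 to 10.7), though its listed tag site differed between the 2 libraries. Pp1s145_142V6.1, named phosphoglycerate kinase in the study's annotation, was also lower, at 88 tags at day 14 against 424 at day 3. Phosphoglycerate kinase makes ATP directly in glycolysis. Of the 5 kinases tested in this group, 1 was called higher and 3 lower at day 14. The plastid kinase Pp1s201_82V6.2 had its highest value at day 14, and Pp1s293_91V6.1 and Pp1s145_142V6.1 theirs at day 3.

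Among enzymes around pyruvate, Pp1s199_145V6.1, a plastid pyruvate dehydrogenase, had 629.8, 116, 29.1 and 3.66 normalized TPM at days 3, 14, 24 and 30, and 6.18 in caulonema and 5.13 in chloronema. It was lower in each step, 5.44-fold at day 14 (5.01 to 5.91) and 3.97-fold at day 24 (3.35 to 4.73), and no other member was called lower in all 3. The other 6 pyruvate dehydrogenase subunits were not called at day 14. Lactate dehydrogenase regenerates NAD when oxygen is short, and Pp1s235_138V6.2 with that term had 184, 11.8, 23.5 and 4.48 normalized TPM over the days, 0.651 in caulonema and no listed value in chloronema. It was 15.6-fold lower at day 14 than at day 3 (12.2 to 20.1). Pp1s169_138V6.1, which the study's annotation names as a homologue of the Arabidopsis IAR4 gene, an E1 alpha subunit, had 126 tags at day 3 and no listed value at day 14, in caulonema or in chloronema, with 4 tags at day 24 and 10 at day 30. With the floor of 3 tags standing in for day 14 its level was 43.0-fold lower, and by the counting interval at least 34.5-fold lower.

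The hexokinases, which start glycolysis, were low throughout. Their 10 members, HXK1 to HXK11 by database match with HXK6 not among them, summed to 94.7 to 160.4 normalized TPM per library, and 3 passed 100 tags at day 3 or 14. HXK1, Pp1s150_124V6.1, had 78.3, 70.8, 111 and 70.4 normalized TPM over the days, and 124 in caulonema and 70.7 in chloronema, and was not called in any comparison. HXK2, Pp1s414_10V6.1, had 9 tags at day 14 against 105 at day 3 and was 11.95-fold lower (6.06 to 26.9). HXK4, Pp1s45_156V6.1, had 32 against 160 tags and was 5.12-fold lower (3.49 to 7.74).

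Malate dehydrogenase interconverts malate and oxaloacetate in the citrate cycle and in shuttles between compartments. Pp1s201_6V6.1 had 891, 600.3, 267 and 22.8 normalized TPM at days 3, 14, 24 and 30, and 271 in caulonema and 143 in chloronema. Pp1s38_300V6.1 had 65.9, 265, 183 and 580.0 normalized TPM, and 217 in caulonema and 221 in chloronema, and was 4.03-fold higher at day 14 than at day 3 (3.59 to 4.52). Pp1s65_267V6.1 had 151 tags at day 14 against 21 at day 3 and was 7.02-fold higher (4.43 to 11.7). Of 10 tested, 2 were called higher and 3 lower, so the most abundant form at day 3 and the one at day 30 were different gene models.

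Aldolases split and join sugar phosphates and belong to the aldehyde-lyases. Pp1s33_389V6.2 had 192, 888, 458 and 361 normalized TPM at days 3, 14, 24 and 30, and 237 in caulonema and 243.5 in chloronema. It was 4.62-fold higher at day 14 than at day 3 (4.33 to 4.93). Pp1s475_27V6.3 had 188, 744, 27.4 and 1057 normalized TPM, and 1044 in caulonema and 1353 in chloronema, and was 3.97-fold higher at day 14 (3.71 to 4.24). Pp1s50_50V6.1 followed with 180 tags at day 14 against 14 at day 3, a ratio of 12.6 (7.29 to 23.4). Of the 9 aldehyde-lyases tested, 3 were called higher and 1 lower.

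Among the other classes, isomerases that interconvert aldoses and ketoses had 2 higher and 2 lower of 5. Pp1s41_309V6.2, the one with the most tags, had 363.5, 139, 87.8 and 132 normalized TPM over the days, and 88.8 in caulonema and 90.7 in chloronema, and was 2.62-fold lower at day 14. Pp1s15_182V6.1, given as ribose-5-phosphate isomerase in the study's annotation and as a pentose-phosphate shunt gene in the files, had 394 tags at day 14 against 73 at day 3 and was 5.27-fold higher (4.1 to 6.86). Enolase is a hydro-lyase, and the 2 hydro-lyases with consecutive identifiers differed in direction. Pp1s1_526V6.1 had 965 tags at day 14 against 2888 at day 3 and was lower, whereas Pp1s1_527V6.1 had 609 against 252 and was higher. Phosphoglycerate mutase had 1 higher, 1 lower and 1 not called, and Pp1s145_164V6.2, with the most tags, was 3.69-fold lower. Pp1s37_53V6.1, a dehydrogenase annotated to the microbody, had 490.3, 205, 108 and 255 normalized TPM, and 137 in caulonema and 86.1 in chloronema.

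The lists of gene models outside the members differed from each other in direction over the same interval. Starch and sucrose genes had more called lower than higher, as the members did. The 16 gene models with a glucose catabolism term and also an exclusion term had 9 higher and 2 lower of 14 tested, with a median log2 ratio of 1.69. Respiratory chain and ATP synthase genes had 16 higher and 1 lower of 65 (0.49), and genes of starch and sucrose 2 higher and 11 lower of 24 (-0.65). Photosystem and thylakoid genes had 193 higher and 12 lower of 286. Their summed level was 34500, 124700, 59820 and 75130 normalized TPM at days 3, 14, 24 and 30. They had been chosen as a marker list of green cells, but were lowest at day 3, when the paper describes only chloronemal cells. Their level is therefore not read as the share of such cells. The part of this photosystem and thylakoid signal in the members' results was not tested.

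**Figure D3:**
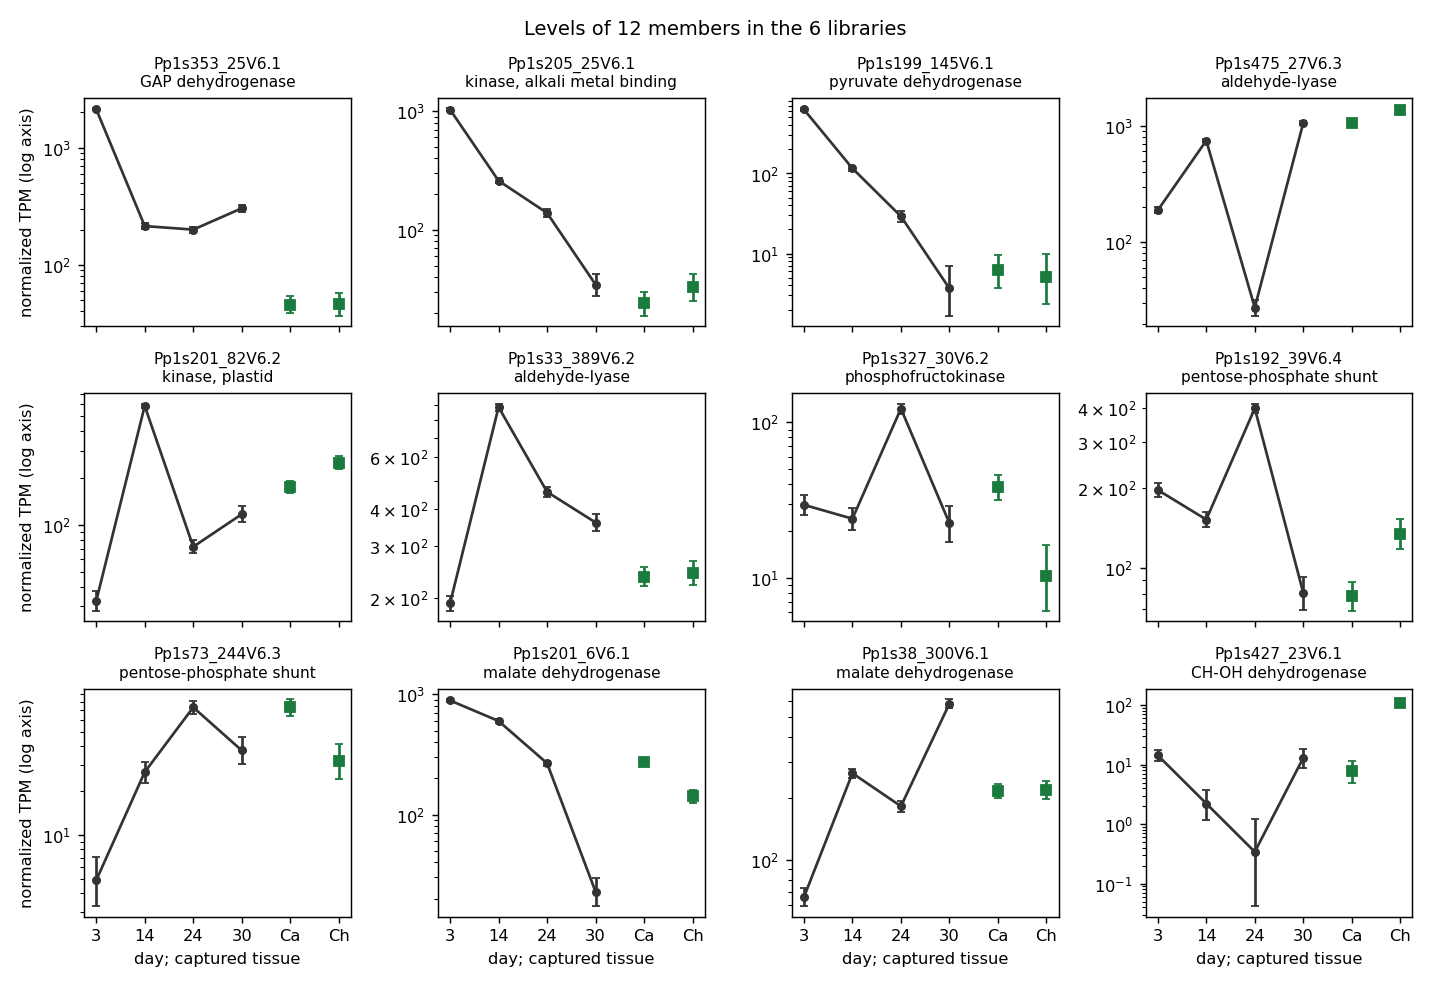
Levels of 12 members in normalized TPM (vertical log axes) at days 3, 14, 24 and 30 (joined circles) and in caulonema (Ca) and chloronema (Ch, squares), with exact Poisson 95% intervals of counting error and 1 library per point. Pp1s353_25V6.1 lies highest at day 3 (2133), Pp1s201_82V6.2 at day 14 (583), Pp1s327_30V6.2 at day 24 (123) and Pp1s38_300V6.1 at day 30 (580.0).

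Between days 24 and 14, most called members were lower at day 24, aldehyde-lyases and pyruvate dehydrogenase among them. Members classed as dehydrogenases of the pentose-phosphate shunt had 3 higher and 1 lower, and phosphofructokinases 2 higher and 2 lower. Of 83 members tested, 7 were called higher and 30 lower, where 23.2% and 26.4% of all 7913 gene models tested (49.5% in either direction) were called higher and lower. The members' median log2 ratio was -0.63, beside -0.06 over all gene models tested. With libraries scaled by total gene tags 12 were higher and 27 lower, as that scaling moved the median of all gene models to 0.2. For 3 of the 7 higher members and 4 of the 30 lower ones the listed tag site differed between the 2 libraries.

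Of the aldehyde-lyases, 5 of 9 were called lower at day 24 and none higher. Pp1s475_27V6.3 had 160 tags at day 24 against 4349 at day 14 and was 27.1-fold lower (23.2 to 31.9). It made up 53.8% of the tags of the class in caulonema and 59.8% in chloronema, whereas at day 24 Pp1s33_389V6.2 held 66.8% (exact interval 65.3% to 68.3%). Pp1s50_50V6.1 was 9.45-fold lower (5.88 to 16.1), and Pp1s89_161V6.1, with 172, 156, 40.5 and 211 normalized TPM over the days and 246 in caulonema and 261 in chloronema, was 3.85-fold lower. The plastid kinase Pp1s201_82V6.2 was 8.05-fold lower (7.28 to 8.93) after its peak at day 14. Pp1s3_238V6.3, the glyceraldehyde-3-phosphate dehydrogenase that had not been called at day 14, was 3.67-fold lower at day 24 (3.44 to 3.93).

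The pyruvate dehydrogenase subunits had 4 lower and none higher of 7. Pp1s368_36V6.1 had 174, 246, 36.7 and 345 normalized TPM at days 3, 14, 24 and 30, and 132 in caulonema and 274 in chloronema, and was 6.7-fold lower at day 24 (5.8 to 7.77). Pp1s156_57V6.1 had 365, 383, 638 and 182 normalized TPM, and 202 in caulonema and 131 in chloronema, and was not called at day 24. Its 3718 tags then were 80.9% of those of the class (79.8% to 82.1%). The aldose-ketose isomerase Pp1s54_320V6.2, of the plastid stroma, had 133 tags at day 24 against 770 at day 14 and was 5.78-fold lower (4.8 to 7.0). Malate dehydrogenase had 1 higher and 3 lower of 9, with Pp1s235_81V6.1 higher at 694 tags at day 24 against 257 at day 14, listed at different sites.

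Phosphofructokinase commits hexose phosphate to glycolysis. Pp1s163_36V6.1, which the study's annotation gives as the form that uses pyrophosphate, homologous to Arabidopsis MEE51, had 35.7, 61.1, 6.0 and 6.11 normalized TPM over the days, and 18.2 in caulonema and 145.4 in chloronema. It was 10.2-fold lower at day 24 than at day 14 (7.18 to 14.8). Pp1s327_30V6.2 had 29.4, 23.9, 123 and 22.4 normalized TPM, and 38.1 in caulonema and 10.3 in chloronema, and was 5.13-fold higher at day 24 (4.27 to 6.19). Pp1s69_13V6.1 had 232 tags at day 24 against 81 at day 14. Thus 2 phosphofructokinases were called higher and 2 lower of 7 tested, and their summed level was 319 normalized TPM at day 24 and 328 at day 14.

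Dehydrogenases of the shunt release the NADPH of the pentose phosphate pathway. Members were put in that class by their process term for the shunt, without requiring a dehydrogenase function term. All 4 tested were called at day 24, 3 higher and 1 lower. Pp1s192_39V6.4 had 197, 152, 400.4 and 80.6 normalized TPM at days 3, 14, 24 and 30, and 78.4 in caulonema and 135 in chloronema. It was 2.63-fold higher at day 24 than at day 14 (2.43 to 2.84), but its tag was listed at site 2 at day 14 and at site 1 in the other libraries, and at day 30 the site 1 tag differed from that of day 24 by T21C, with the base of day 24 first. Pp1s73_244V6.3 had 4.91, 26.7, 73.6 and 37.4 normalized TPM, and 73.5 in caulonema and 31.9 in chloronema, and was 2.76-fold higher (2.29 to 3.33), also with a change of listed site. Pp1s222_130V6.2 had 202, 52.4, 130 and 214 normalized TPM, and 58.9 in caulonema and 163 in chloronema, and was 2.49-fold higher (2.18 to 2.85), with the same site in both libraries. The alternative model of its locus, Pp1s222_130V6.1, was 4.0-fold lower, with 108 tags at day 24 against 433 at day 14. Its listed site differed between the 2 libraries. The 2 models of that locus thus moved in opposite directions, with 760 against 306 tags for Pp1s222_130V6.2. Whether the locus as a whole changed was not tested.

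Over the same interval, photosystem and thylakoid genes had 8 higher and 159 lower of 280, and respiratory chain and ATP synthase genes 3 higher and 32 lower of 65. Genes of starch and sucrose had 6 higher and 4 lower of 18, and the gene models with an exclusion term 1 higher and 9 lower of 14.

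**Figure D4:**
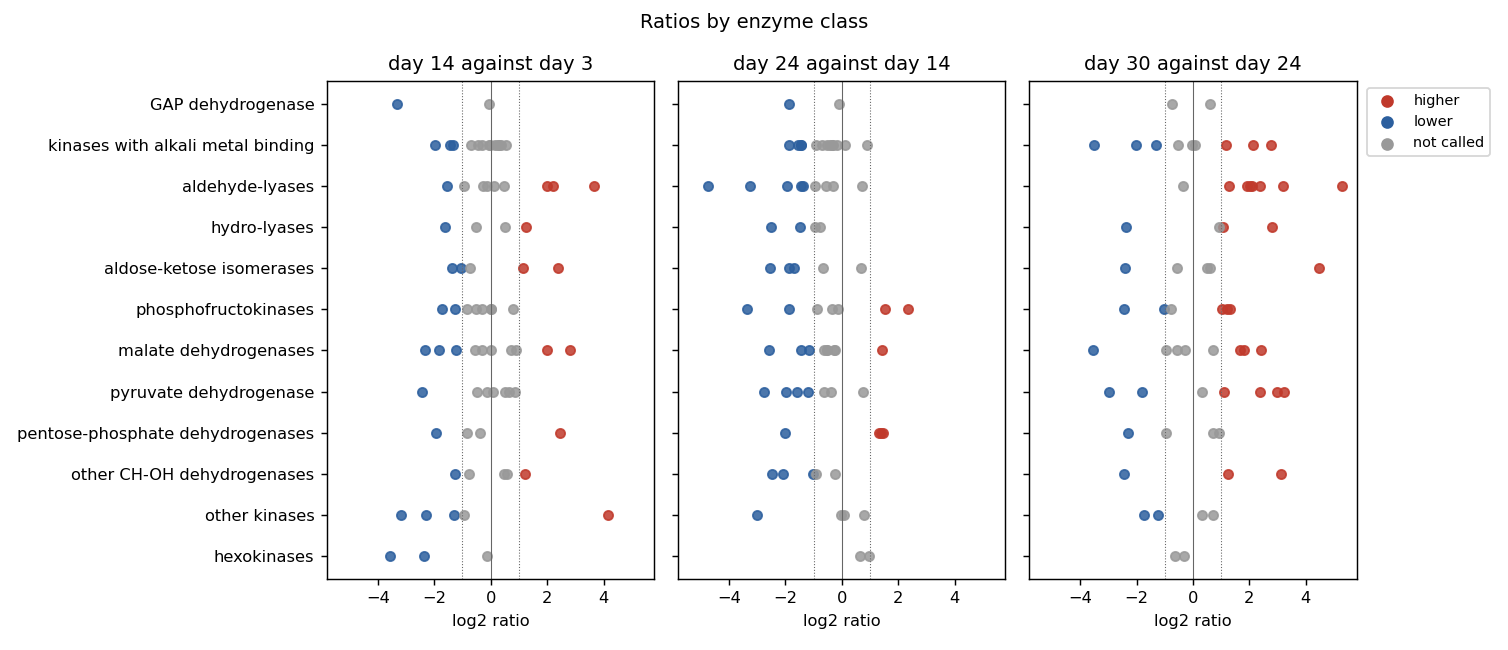
Log2 ratios (horizontal axes) of the tested members in 12 enzyme classes (rows) for the 3 comparisons of stages, 1 point per member, coloured by call, with dotted lines at 2-fold. The aldehyde-lyases have 5 members called lower and none higher at day 24, and 7 higher and none lower at day 30. The 2 comparisons share the day 24 library.

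Between days 30 and 24, aldehyde-lyases, 4 pyruvate dehydrogenase subunits and 3 malate dehydrogenases were higher at day 30, and the most abundant malate dehydrogenase and both lactate dehydrogenases were lower. Of 73 members tested, 27 were called higher and 20 lower, where 23.2% and 39.3% of all 7267 gene models tested (62.4% in either direction) were called higher and lower. The median log2 ratio was 0.32, beside -0.48 over all gene models tested. The plastid set had 5 higher and 6 lower of 27 (median 0.13), and the others 22 higher and 14 lower of 46 (0.75). For 5 of the 27 and 5 of the 20 the listed site differed between the 2 libraries. Among the latter was the lactate dehydrogenase Pp1s244_82V6.1.

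The captured tissues, whose libraries ranked close to that of day 30, were also set against day 14. Of 82 members tested, 11 were called higher and 22 lower in caulonema, where 15.4% and 34.8% of all 6917 gene models were (50.2% in either direction). In chloronema 13 were higher and 21 lower of 79, where 12.5% and 37.8% of 6553 were (50.3% in either direction). Of the 27 members higher at day 30, 4 (14.8%) were also over 2-fold higher in both captured tissues than at day 14, beside 20.2% of the 1683 gene models called higher at day 30. Of the 20 lower, 10 were over 2-fold lower in both, beside 45.3% of the 2854 gene models called lower, so that the members' shares lay near those of all called gene models. What sets the day 30 library apart and the stage cannot be told apart in these data.

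Of 8 aldehyde-lyases tested, 7 were called higher and none lower. Pp1s475_27V6.3 had 2596 tags at day 30 against 160 at day 24 and was 38.5-fold higher (32.8 to 45.5), the largest ratio among the members in this comparison. Its level at day 30, 1057 normalized TPM, lay near the 1044 of caulonema. Pp1s171_153V6.1 had 48.4, 24.98, 20.1 and 185 normalized TPM at days 3, 14, 24 and 30, and 75.2 in caulonema and 74.1 in chloronema, and was 9.23-fold higher at day 30 (7.52 to 11.4). The aldose-ketose isomerase Pp1s180_53V6.4, with a pentose metabolism term, had 77.8, 46.4, 12.5 and 276 normalized TPM, and 64.4 in caulonema and 27.4 in chloronema. It was 22.1-fold higher at day 30 than at day 24 (17.3 to 28.5), and its day 30 level exceeded those of both captured tissues.

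The pyruvate dehydrogenase subunits exchanged ranks. Pp1s368_36V6.1 was 9.4-fold higher at day 30 than at day 24 (8.09 to 10.98) and held 42.2% of the tags of the class at day 30. Pp1s56_222V6.1 had 264 tags at day 30 against 79 at day 24 and was 7.93-fold higher (6.15 to 10.3). Pp1s156_57V6.1, at 80.9% of the class at day 24, was 3.5-fold lower at day 30 (3.17 to 3.87), and Pp1s199_145V6.1 had 9 tags at day 30 against 170 at day 24, listed at sites 5 and 1. The malate dehydrogenases also did so. Pp1s201_6V6.1 had 56 tags at day 30 against 1559 at day 24 and was 11.7-fold lower (8.98 to 15.6), although it was at 271 normalized TPM in caulonema, while Pp1s38_300V6.1 was 3.17-fold higher (2.92 to 3.43) and Pp1s235_81V6.1 3.5-fold higher (3.17 to 3.86).

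Further members were higher at day 30 in single classes. Pp1s215_24V6.1, an intramolecular phosphotransferase, had 124, 118, 84.0 and 357 normalized TPM at days 3, 14, 24 and 30, and 118 in caulonema and 181 in chloronema, and was 4.25-fold higher (3.8 to 4.75). Pp1s60_42V6.1, a dehydrogenase of the CH-OH group, had 156 tags at day 30 against 43 at day 24 and was 8.61-fold higher (6.11 to 12.4). The hydro-lyase Pp1s1_526V6.1 had 506, 165, 85.4 and 177 normalized TPM, and 637 in caulonema and 1415 in chloronema, so that its highest value was in the captured chloronemal cells. Phosphofructokinases had 3 higher and 2 lower of 6, and Pp1s81_165V6.4, with the most tags, was 2.33-fold higher with another listed site.

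Among members lower at day 30, Pp1s392_18V6.3, a kinase with alkali metal ion binding, had 7 tags against 189 at day 24. The phosphoglycerate mutase Pp1s81_230V6.1 had 6 against 142, with another listed site. Pp1s327_30V6.2 was 5.49-fold lower (4.17 to 7.35) and Pp1s192_39V6.4 4.97-fold lower (4.3 to 5.77), after their highest values at day 24. Pp1s159_68V6.1, the only member annotated to transfer aldehyde or ketonic groups, had 371, 185, 195 and 64.7 normalized TPM at days 3, 14, 24 and 30, and 67.0 in caulonema and 188 in chloronema, and was 3.02-fold lower at day 30 (2.56 to 3.59). Pp1s10_252V6.1, an oxo acid dehydrogenase, was at 111 tags against 532 and close to the limit, 2.02-fold lower (1.64 to 2.5). Neither the 2 glyceraldehyde-3-phosphate dehydrogenases nor the 2 hexokinases tested were called.

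Over the same interval, photosystem and thylakoid genes had 57 higher and 83 lower of 246 with a median of -0.31. Respiratory chain and ATP synthase genes had 11 higher and 22 lower of 60, genes of starch and sucrose 5 higher and 8 lower of 19, and gene models with an exclusion term 4 higher and 4 lower of 14.

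Called in all 3 steps, of which consecutive ones share a library, were 6 members, with Pp1s199_145V6.1 lower each time. The aldehyde-lyase Pp1s475_27V6.3 and the hydro-lyase Pp1s1_527V6.1 were higher, lower and higher. The phosphoglycerate mutase Pp1s81_230V6.1 was higher and then lower in both later steps, and the malate dehydrogenase Pp1s235_81V6.1 lower and then higher in both. The oxo acid dehydrogenase Pp1s10_252V6.1 was lower, higher and lower. These 6 were 6.74% of the 89 members tested in a step, beside 8.498% of the 8861 gene models tested. At least 1 step called 78 members (87.6%), beside 83.0% of gene models, and with day 30 left out 64 (71.9%), beside 62.6%.

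Caulonemal and chloronemal cells were compared to ask which genes mark either filament type. A malate dehydrogenase and a phosphofructokinase were higher in caulonema, while a second malate dehydrogenase, the phosphofructokinase that uses pyrophosphate and a glyceraldehyde-3-phosphate dehydrogenase were lower. Of 61 members tested, 5 were called higher and 13 lower, where 21.8% and 16.5% of all 4292 gene models tested (38.4% in either direction) were called higher and lower. The members' median log2 ratio was -0.02, beside 0.13 over all gene models tested. The balance depended on the scaling, with 11 higher and 10 lower by total gene tags and 20 higher and 4 lower on the deposited TPM, which moved the median of all gene models to 0.38 and 0.89. All 18 called members had the same listed tag site in both libraries.

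**Figure D5:**
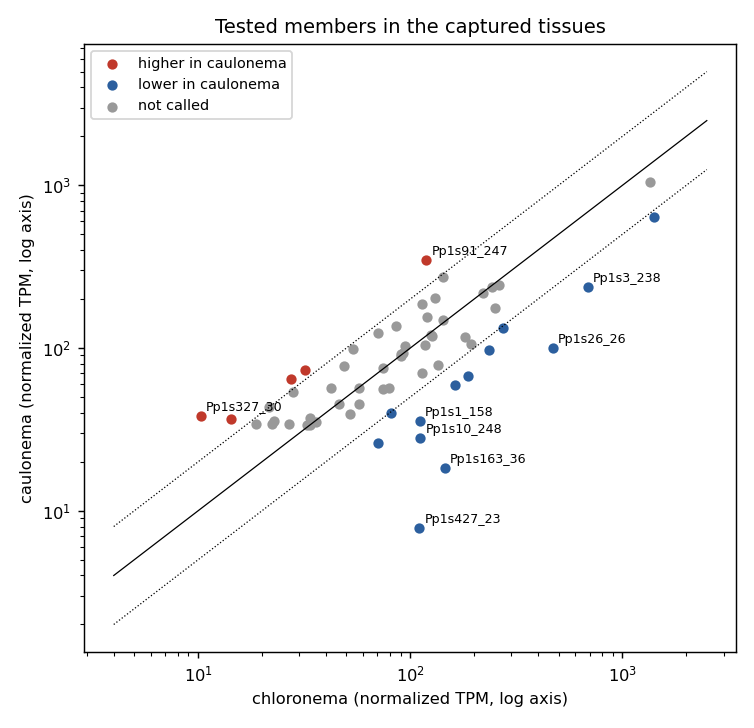
Levels of the 61 tested members in caulonema (vertical log axis) and chloronema (horizontal log axis) in normalized TPM, 1 point per member, coloured by call, with the line of equal levels and dotted lines at 2-fold. Pp1s427_23 lies farthest below the lines, at 7.81 in caulonema and 110 in chloronema.

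Higher in caulonema, the malate dehydrogenase Pp1s91_247V6.1 had 348 normalized TPM in caulonema and 119 in chloronema, a ratio of 2.93 (2.52 to 3.42), and 141, 113, 95.2 and 49.6 at days 3, 14, 24 and 30. The phosphofructokinase Pp1s327_30V6.2 had 117 tags in caulonema against 18 in chloronema, a ratio of 3.71 (2.25 to 6.48). The phosphoglycerate mutase Pp1s23_285V6.1 had 112 against 25 tags, a ratio of 2.56 (1.65 to 4.12). The others were the isomerase Pp1s180_53V6.4, at 2.35-fold (1.71 to 3.3), and Pp1s73_244V6.3, at 2.3-fold (1.71 to 3.14). Pp1s73_244V6.3 was classed with the shunt dehydrogenases by its process term.

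Lower in caulonema, Pp1s427_23V6.1 had 24 tags in caulonema against 193 in chloronema and was 14.1-fold lower (9.19 to 22.5). It is a dehydrogenase of the CH-OH group with a term for branched chain amino acids. Pp1s10_248V6.4 carries that function and that term too, is a homologue of Arabidopsis GLYR2 by the study's annotation, and was 3.97-fold lower (3.07 to 5.18). Pp1s163_36V6.1 was 7.98-fold lower in caulonema (5.96 to 10.9). The malate dehydrogenase Pp1s26_26V6.1, of plastid stroma and envelope, had 99.6 normalized TPM in caulonema and 469 in chloronema, and 266, 269, 174 and 116 at days 3, 14, 24 and 30, and was 4.71-fold lower (4.12 to 5.38). Pp1s3_238V6.3 was 2.92-fold lower (2.66 to 3.2) and held 72.3% of the tags of its class in caulonema and 88.7% in chloronema. The carboxylesterase Pp1s1_158V6.1, of plastid stroma, was 3.12-fold lower (2.45 to 3.98).

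The hydro-lyase Pp1s1_526V6.1, at 1957 tags in caulonema against 2482 in chloronema, was the most abundant member called lower, at 2.22-fold (2.09 to 2.36). Pp1s159_68V6.1, Pp1s222_130V6.2, Pp1s54_320V6.2, Pp1s66_184V6.1, Pp1s368_36V6.1 and Pp1s56_222V6.1 were 2.04-fold to 2.8-fold lower. None of the 8 aldehyde-lyases tested was called, and Pp1s475_27V6.3 gave a log2 ratio of -0.38. None of the 4 kinases with alkali metal ion binding passed either. The plastid set had 2 higher and 5 lower of 20, and the others 3 higher and 8 lower of 41.

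In the lists beside the members, respiratory chain and ATP synthase genes had 4 higher and 20 lower of 57 in caulonema with a median of -0.56, and photosystem and thylakoid genes 26 higher and 45 lower of 208 with a median of -0.16. The summed level of photosystem and thylakoid genes was 79060 normalized TPM in caulonema and 100700 in chloronema. Genes of starch and sucrose had 3 higher and 3 lower of 10, and gene models with an exclusion term 1 higher and 3 lower of 12.

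The 4 annotated tricarboxylic acid transporters were low. Pp1s246_109V6.1 stayed between 28.9 and 38.2 normalized TPM in the 6 libraries and was not called. Pp1s55_273V6.1 was lower at day 14, with 157 tags against 418 at day 3, and lower at day 30, with 9 against 156 at day 24. Pp1s155_48V6.1 reached 110 tags in caulonema, and Pp1s298_28V6.1 was listed with 5 tags at day 3 only. The 3 transcription factors with a glycolysis term did not reach the limit, and the highest, Pp1s294_22V6.1, had 22 tags at day 3 and no listed value elsewhere.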

How the data were processed

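Digital gene expression tag profiling was done by the authors on 6 libraries, from 6 µg of RNA per stage and 2 µg per captured tissue. The deposited counts are tags per gene model, after the authors removed adaptor, ambiguous, wrong-length and single-copy tags and matched the rest to Phytozome gene models, and the deposited TPM are those counts over a larger library size. The paper names blastn and the processing notes Bowtie, with no version. Mapped gene tags were 52.8% to 85.5% of the authors' library size.

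Library sizes were scaled by TMM (edgeR 4.0.16). Counts were compared by exact binomial tests (scipy 1.17.1), which were tested on simulated data, since with 1 library per condition no quasi-likelihood model could be fitted. A fold against an unlisted value used 3 tags. Named members were the 15 most abundant, the 6 called highest and lowest per comparison by the interval bound nearest to 1, the most abundant of each enzyme, and those unlisted in 1 library; a few others were named after their values were seen. Members and lists were chosen with earlier results of these data known. Alternatives were other scalings (total tags, DESeq2 1.42.0 size factors, deposited TPM), filters, thresholds, tag positions, member rules and assumed dispersions. No identifier matched the RefSeq gene table, so no coordinates are given.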

Additional observations from a re-analysis of the deposited data

How the results depend on the processing

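The alternatives run could not turn the direction of a called value, so its direction was not tested by them. Filters, thresholds, tag positions and member rules leave each ratio as it is. The other scalings moved the ratios of a comparison by less than the 2-fold limit of a call. Shares of all gene models called higher and lower are in brackets. A 4-fold threshold left 7 higher and 9 lower members for day 14 against day 3 (7.39% and 7.42%), 1 and 10 for day 24 against day 14 (7.62% and 9.79%), 15 and 12 for day 30 against day 24 (12.8% and 24.3%), and 0 and 3 for caulonema against chloronema (5.96% and 4.03%). With a biological coefficient of variation between libraries assumed at 0.2, an exact test in edgeR gave 8 and 15 (9.88% and 9.66%), then 1 and 18 (10.9% and 14.4%) for the first 2. It kept the member counts of day 30 against day 24 within 1.5 times (16.8% and 28.2%), and gave 0 and 4 (7.39% and 6.66%) for the captured tissues. With 0.4 it gave 1 and 2 (1.31% and 2.24%), 0 and 1 (0.859% and 0.695%), 2 and 0 (3.43% and 7.07%), and 0 and 0 (0.21% and 0.0233%). Calls at 2-fold therefore rest on counting error alone. Without the limit of 100 tags, 12 members were higher at day 24 (17.7%) and 43 at day 30 (20.5%), and the captured median became -0.18. Members with the same tag site gave 4 higher at day 24 (21.9%), total gene tags 12 (28.9%), and the inclusion terms alone 22 higher at day 14 (20.1%). For the captured tissues, total gene tags gave 11 higher (27.7%) and a median of 0.22, and the deposited TPM gave 20 higher and 4 lower (46.1% and 6.17%) and 0.73, so that the sign of the median turned, and the cause was not tested. The tested ratios of named members, called or not, were also compared between scalings. DESeq2 size factors left 175 of these ratios with the same outcome, which includes those that stayed uncalled, added 2 calls and lost 1. Total gene tags left 164 with the same outcome, added 7 calls and lost 7, and the deposited TPM left 156, added 12 and lost 10. No paired analysis was possible because each condition had 1 library. The limit of 100 tags corresponded to 17.1 to 17.5 normalized TPM at days 3 to 24 but to 32.5 to 57.0 in the other 3 libraries, so that lower genes were untested there.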
